A study of Mus musculus with 15 samples.

Results

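The potassium, sodium and calcium channel genes comprised 132 of the 46603 gene IDs in the count files. They were chosen by symbol alone: every symbol made of Kcn, letters and a number, of Scn, a number and a or b, or beginning with Cacna, Cacnb or Cacng. Of these, 92 were potassium, 14 sodium and 26 calcium channel genes. RNA came from mouse embryonic fibroblasts (MEFs) of BALB/c embryos, labelled 10.5 days old, that were beta-actin+/+ (WT), beta-actin+/- (HET) or beta-actin-/- (KO) and were being turned into osteoblasts. All cells, WT included, had reached confluence on Matrigel and then stood in OsteoMax-XF medium with dexamethasone, a glucocorticoid, and forskolin, which raises cAMP. The 15 libraries formed 5 groups of 3, namely the WT and the KO of day 4 and all 3 genotypes of day 14. The labels name no embryo, clone or culture for a replicate number, so the spread between libraries may be technical, and p-values measure that spread alone. No cells without the osteogenic medium and no HET cells of day 4 were analysed here.

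Ion channels set the membrane potential and let calcium into the cell. Potassium channels fall into voltage-gated, calcium- or sodium-activated, inwardly rectifying and tandem-pore (K2P) classes, the last acting as background conductances. Voltage-gated calcium channels combine a pore-forming alpha1 subunit with beta, alpha2delta and, in some tissues, gamma subunits, and sodium channels pair a large alpha subunit with small beta subunits. In bone and fibroblasts they are best known for calcium entry through L-type and T-type channels, for mechanosensitive background potassium currents and for inward rectifiers that hold the resting potential.

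Libraries held 19878449 to 47486736 counts in genes. Actb followed the labels within each day. At day 4 it stood at 1160 to 1190 CPM (CPM are counts scaled to an equal library size) in WT and 130 to 139 CPM in KO. At day 14 it stood at 2950 to 3070 CPM in WT, 1440 to 1640 CPM in HET and 43.0 to 46.5 CPM in KO. Of 8 osteoblast markers, Runx2, Alpl, Col1a1 and Spp1 exceeded 1 CPM in each group. The others were low in every library, WT included: Sp7 reached at most 0.14, Bglap 0.374, Ibsp 0.0934 and Dmp1 0.0935 CPM. The late markers Ibsp and Dmp1 had no count in either group of KO or in WT at day 4, and Ibsp and Sp7 had none in HET. HET replicate 2 differed from the other HET libraries by a chi-square of 45.6 and 45.8 per degree of freedom over genes, against 2.81 between those. In WT of day 14, replicate 1 differed from replicates 2 and 3 by 9.02 and 17, and these differed from each other by 4.73. Libraries of the other groups differed by 2.15 to 2.9.

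Of the 132 genes, 54 had enough counts to be tested and 78 did not. The filter asks for counts in some libraries, so a gene that passed through 1 high group had to differ, and the counts below describe the tested genes only. Of the genes named below, Kcnc2, Kcng1, Kcnh1 and Kcnj16 passed through WT of day 4 alone and Scn11a through KO of day 4. Cacna1i and Scn8a passed through WT of day 14 alone, and Kcnk12 and Kcnv2 through KO of day 14. Their p-values against those groups carry that selection. Summed over all 132 genes, expression was 631 ± 0.653 CPM (SD, n = 3 libraries here and throughout) in WT and 669 ± 5.92 CPM in KO at day 4. By day 14 it was 344 ± 7.5 CPM in WT, 269 ± 29.1 CPM in HET and 211 ± 2.83 CPM in KO. The total was thus lower at day 14 than at day 4 in every library, and the 3 genotypes of day 14 did not overlap. In each group the 5 leading genes carried 54.7% to 73.0% of the sum. Per kilobase of exon, the calcium channel beta subunit gene Cacnb3 led in 4 groups, and the potassium channel gene Kcnf1 led in HET.

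**Figure D1:**
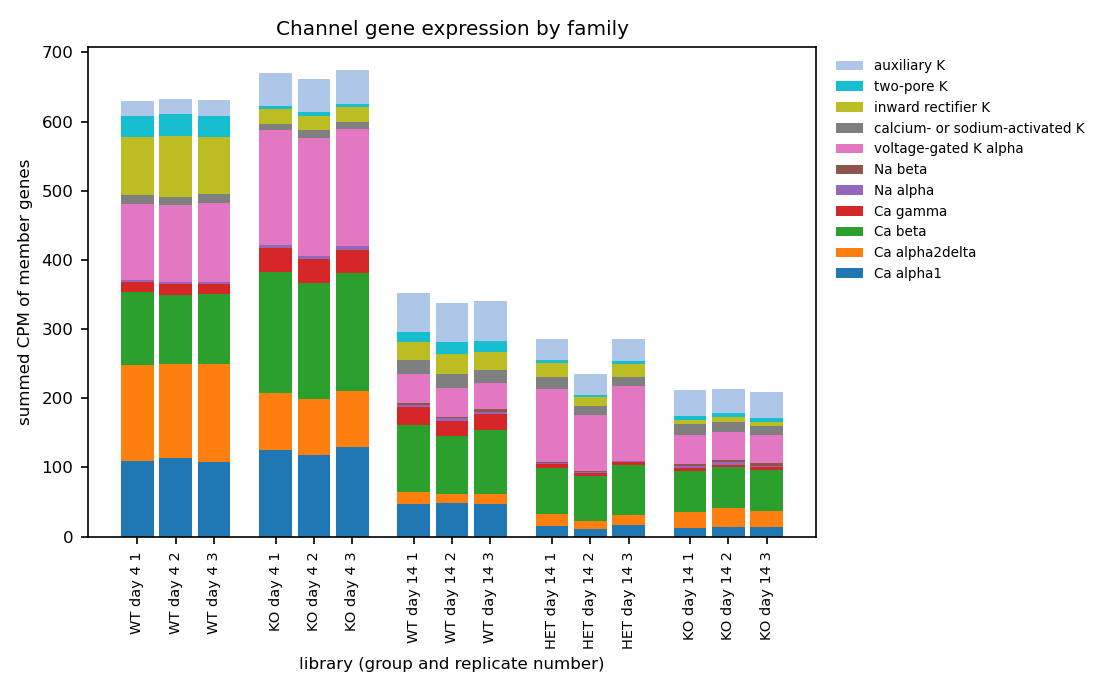
Summed CPM of the 132 channel genes in each of the 15 libraries, stacked by family. Totals were 631 and 669 CPM on average in WT and KO at day 4 and 344, 269 and 211 CPM in WT, HET and KO at day 14, and the calcium channel beta family held 59.7 to 172 CPM on average by group.

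Most tested channel genes differed between genotypes and between days, in both directions. At day 14, 12 of 54 were higher and 28 lower in KO than in WT (edgeR quasi-likelihood test, Benjamini-Hochberg adjusted p under 0.05 over all 15296 tested genes, written below as called, with values in parentheses giving the log2 change ± its standard error), where 30.9% of all genes were higher and 32.2% lower. HET against WT gave 6 higher and 31 lower, against 28.3% and 29.9% of all genes. KO against HET gave 19 higher and 15 lower, against 29.4% and 30.1%. At day 4, 19 were higher and 22 lower in KO than in WT, against 35.7% and 33.8%. From day 4 to day 14, 24 rose and 17 fell in WT, against 39.7% and 34.9% of all genes, and 15 rose and 17 fell in KO, against 30.8% and 30.1%. The KO effect differed between the days for 35 genes, 15 with a higher and 20 with a lower KO to WT ratio at day 14, against 30.7% and 34% of all genes.

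Calls were common over all genes in each comparison, so sizes are given beside the counts. The median log2 change of the 54 genes was -0.71 in KO and -0.88 in HET against WT at day 14, while the median over all tested genes was -0.02 in both. Their median absolute log2 change was 2.13 and 1.45 in those comparisons, against 0.46 and 0.42 over all genes. At day 4 the median change in KO was -0.20, with a median absolute change of 2.08 against 0.58. The filter bears on these sizes too, since a gene that passed through its high group alone had to show a large change. The channel genes and all tested genes were not matched by level. WT at day 14 had the highest mean for 16 of 54 genes (29.6%, and 19.6% of all tested genes) and the lowest mean for 5 (9.3% and 17.1%). WT at day 4 was highest for as many, 16 (29.6% and 26.8%), and lowest for 12 (22.2% and 29.2%). KO at day 4 was lowest most often, for 15 (27.8% and 17.8%). Because these cultures are bulk samples, fewer cells that express a channel and less RNA per cell cannot be told apart.

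**Figure D2:**
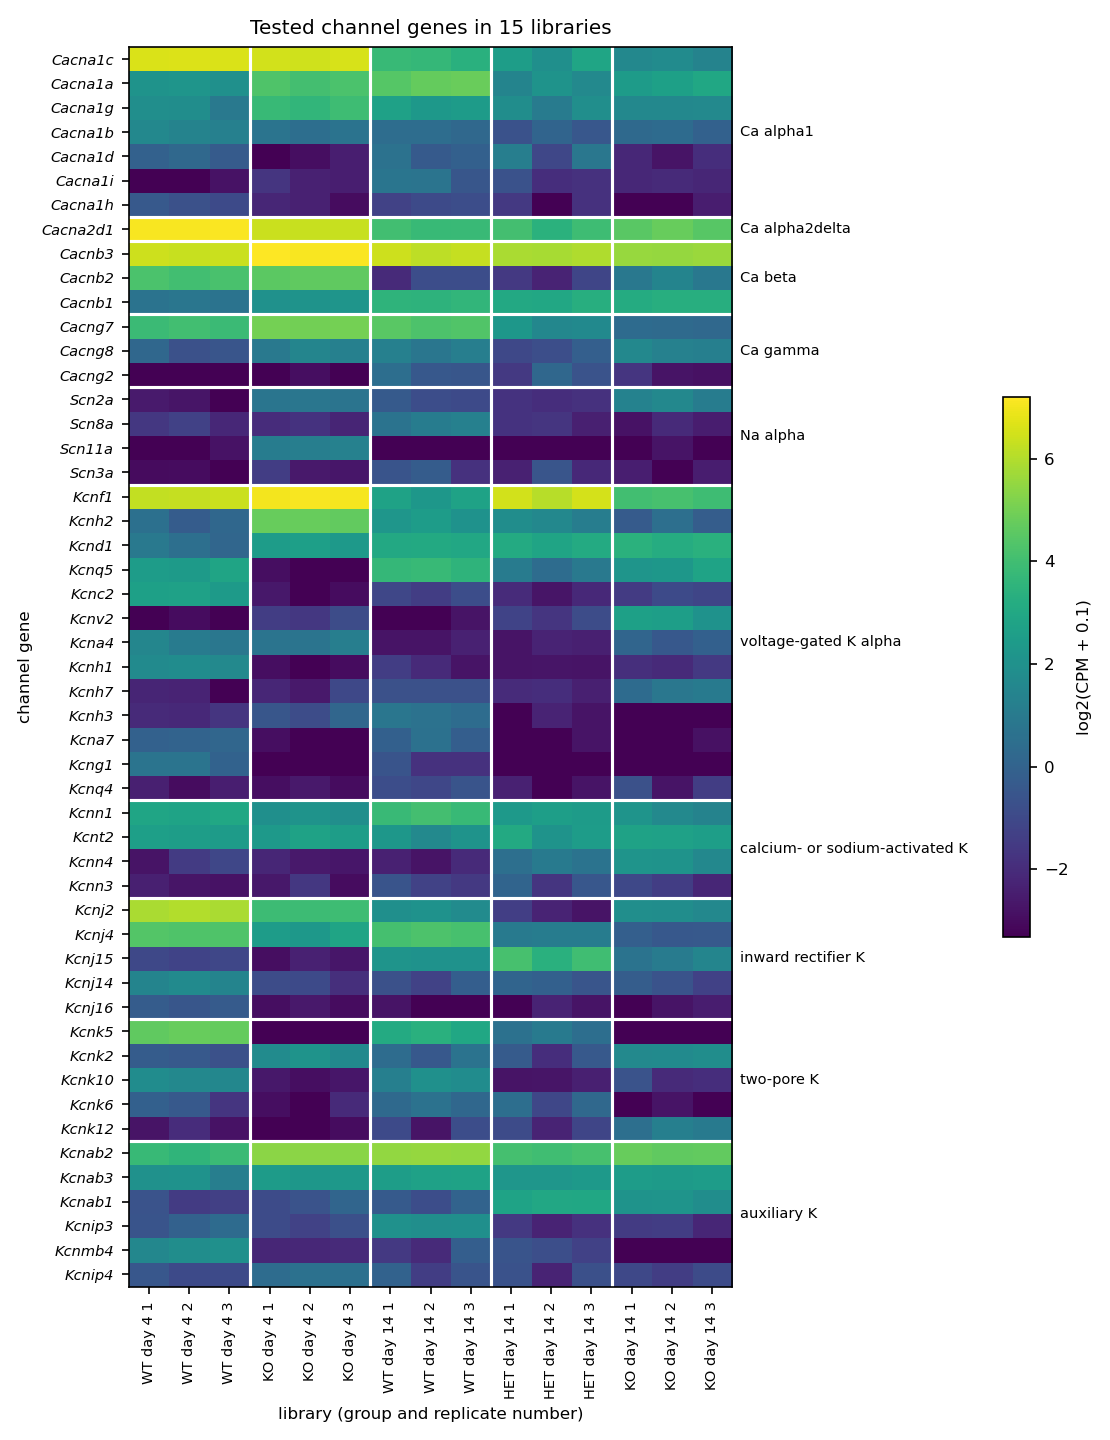
Expression of 51 of the 54 tested channel genes, log2(CPM + 0.1), in 15 libraries, with genes in rows grouped by family and libraries in columns grouped by genotype and day. The 3 libraries of a group look alike for most genes, and whole blocks of a row switch between groups, as for Kcnk5, Kcnf1 and Kcnj2.

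Forskolin, given to all groups, raises cAMP, so promoters were searched for the cAMP response element. They are shown for 4 genes whose groups stood far apart: Kcnk5, without a count in KO, the inward rectifier genes Kcnj2 and Kcnj4, and the calcium channel gene Cacna2d1. The sequences are the 250 bases before the RefSeq start on GRCm38.p6, written 5' to 3' on the gene's strand, and capitals mark TGACG, the core of the cAMP response element, or TATAAA, on either strand.
Kcnk5, chr14:20181783-20182032, minus strand: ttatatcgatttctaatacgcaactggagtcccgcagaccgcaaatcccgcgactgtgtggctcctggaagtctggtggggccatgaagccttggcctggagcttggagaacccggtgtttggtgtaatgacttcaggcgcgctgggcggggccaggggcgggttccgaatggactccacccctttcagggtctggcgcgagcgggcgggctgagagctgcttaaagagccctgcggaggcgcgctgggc
Kcnj2, chr11:111065914-111066163, plus strand: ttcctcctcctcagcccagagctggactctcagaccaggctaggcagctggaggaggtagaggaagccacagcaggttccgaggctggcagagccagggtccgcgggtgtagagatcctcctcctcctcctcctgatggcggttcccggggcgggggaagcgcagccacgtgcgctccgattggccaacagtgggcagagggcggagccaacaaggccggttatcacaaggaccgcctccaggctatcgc
Kcnj4, chr15:79505242-79505491, minus strand: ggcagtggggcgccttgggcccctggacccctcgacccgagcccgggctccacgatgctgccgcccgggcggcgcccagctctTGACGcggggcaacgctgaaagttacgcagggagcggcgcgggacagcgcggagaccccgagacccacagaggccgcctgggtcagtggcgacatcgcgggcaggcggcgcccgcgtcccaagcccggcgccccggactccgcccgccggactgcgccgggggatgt
Cacna2d1, chr5:15934441-15934690, plus strand: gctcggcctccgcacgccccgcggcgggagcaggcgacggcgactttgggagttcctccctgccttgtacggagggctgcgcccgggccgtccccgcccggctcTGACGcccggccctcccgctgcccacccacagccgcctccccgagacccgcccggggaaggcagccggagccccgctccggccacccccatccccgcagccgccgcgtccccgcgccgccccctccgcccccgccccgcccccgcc
TGACG lies 167 bases before the start of Kcnj4 and 146 before that of Cacna2d1, and neither motif is in the windows of Kcnk5 and Kcnj2. RefSeq promoters were found for 97 of the 132 genes, with 133 starts. The full element TGACGTCA was in 0 of these 133 windows and in 1.5% of all 32851 windows, TGACG (which TGACGTCA also holds) in 15% and 17.8%, and TATAAA in 3.8% and 12.4%. A match in letters is a description of the window and not a binding site.

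All 5 tested tandem-pore potassium channel genes, of 14 in the family, were called in KO against WT at day 14, 2 higher and 3 lower, where 63.1% of all tested genes were called (30.9% higher and 32.2% lower). Of these, Kcnk12 passed the filter through KO of day 14 alone and had to differ. Kcnk5 (ENSMUSG00000023243, chr14:20140057-20181809, GRCm38), a background potassium channel opened by alkaline pH, stood at 25, 27.1 and 26.2 CPM in the WT libraries of day 4 and at 8.59, 10.2 and 7.71 CPM in those of day 14. HET held 1.44, 1.89 and 1.31 CPM, and no KO library of either day held a single count. WT was therefore highest, HET lay between without overlap, and KO was at 0 throughout. Kcnk5 was at least 874-fold lower in KO at day 4 (adjusted p = 1.12e-11) and at least 209-fold lower at day 14 (adjusted p = 9.23e-10), with the KO group set at 3 counts. HET was 5.75-fold below WT (adjusted p = 1.18e-07). These bounds, and the counting intervals below, cover counting error alone.

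The mechanosensitive relatives Kcnk2 and Kcnk10 went opposite ways in KO. Kcnk10 held 3.41, 2.96 and 2.82 CPM in WT and 0.0604, 0.032 and 0.055 CPM in KO at day 4, and its log2 change was -5.83 ± 0.70, adjusted p = 9.50e-09. At day 14 it held 2.24, 3.8 and 3.41 CPM in WT, 0.0479, 0.0526 and 0.0901 CPM in HET and 0.55, 0.137 and 0.158 CPM in KO, so HET was the lowest group and lay 45.7-fold below WT (adjusted p = 1.03e-07). Kcnk2, by contrast, held 0.732, 0.675 and 0.506 CPM in WT and 3.32, 4.13 and 3.11 CPM in KO at day 4, a log2 change of 2.42 ± 0.31, adjusted p = 2.84e-06. It was higher in KO at day 14 too, at 3.04, 3.16 and 3.52 CPM against 1.21, 0.649 and 1.5 CPM in WT (1.53 ± 0.31, adjusted p = 4.68e-04). An antisense gene overlaps 12.2% of the Kcnk2 exons, and with these unstranded libraries its reads cannot be told apart.

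Kcnk6, a weakly inwardly rectifying channel, held 1.21 ± 0.241 CPM in WT, 0.914 ± 0.485 CPM in HET and 1 count over all KO libraries at day 14, which put KO below WT 85.8-fold, with a 95% exact counting interval of 15 to 3430 (adjusted p = 6.73e-05). Kcnk12, whose product carries little or no current by itself, went the other way and was highest in KO at day 14, at 1.35, 2.24 and 1.94 CPM against 0.42, 0.0464 and 0.467 CPM in WT (2.55 ± 0.56, adjusted p = 6.18e-04).

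All 5 tested inward rectifier genes, of 15 in the family, were lower in KO than in WT at day 4, where 33.8% of all genes were lower. Of these, Kcnj16 had 72 counts in WT of day 4 and 1 to 4 in each other group, so it passed the filter through that group alone and had to differ. The family sum at day 4 was 21.4 ± 1.07 CPM in KO against 84.4 ± 2.56 CPM in WT. Kcnj2 (chr11:111066164-111076821), the classical channel of the resting potential in heart and skeletal muscle, stood at 58.6, 63.5 and 58.7 CPM in WT and at 15, 15 and 15.2 CPM in KO at day 4 (-2.00 ± 0.09, adjusted p = 2.83e-11). At day 14 WT held 3.69, 3.99 and 3.27 CPM and KO 3.59, 3.52 and 2.96 CPM. Those groups overlapped, with a log2 change of -0.12 ± 0.14, adjusted p = 0.473. HET held 0.287, 0.105 and 0.0451 CPM, 9 counts in all, and was lower than both WT (-4.61 ± 0.49, adjusted p = 9.65e-10) and KO (KO minus HET 4.49 ± 0.49, adjusted p = 1.44e-09). The heterozygote was thus not between the homozygous groups for this gene. Its neighbour Kcnj16, whose start lies 98.1 kb away, held at most 0.105 CPM outside WT of day 4, where it held 0.732, 0.597 and 0.716 CPM.

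Kcnj4 (chr15:79483714-79505241), a strong inward rectifier of brain and heart, followed the Actb genotype in order at day 14. It held 17.0, 19.2 and 17.6 CPM in WT, 1.87, 2.05 and 2.07 CPM in HET and 0.803, 0.64 and 0.672 CPM in KO, 3 groups without overlap. The log2 changes were -3.16 ± 0.15, adjusted p = 4.26e-11 for HET and -4.66 ± 0.22, adjusted p = 2.25e-12 for KO against WT. Kcnj15 had its peak in HET instead, at 17.6, 10.3 and 15.5 CPM against 4.25, 4.04 and 4.02 CPM in WT (1.82 ± 0.20, adjusted p = 9.78e-07) and 1.52, 2.01 and 2.65 CPM in KO. Its mean in HET was 14.5 CPM with and 16.6 CPM without the library that stood apart. From day 4 to day 14 it rose in WT (3.46 ± 0.31, adjusted p = 1.47e-08) and in KO (5.01 ± 0.67, adjusted p = 5.36e-08).

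**Figure D3:**
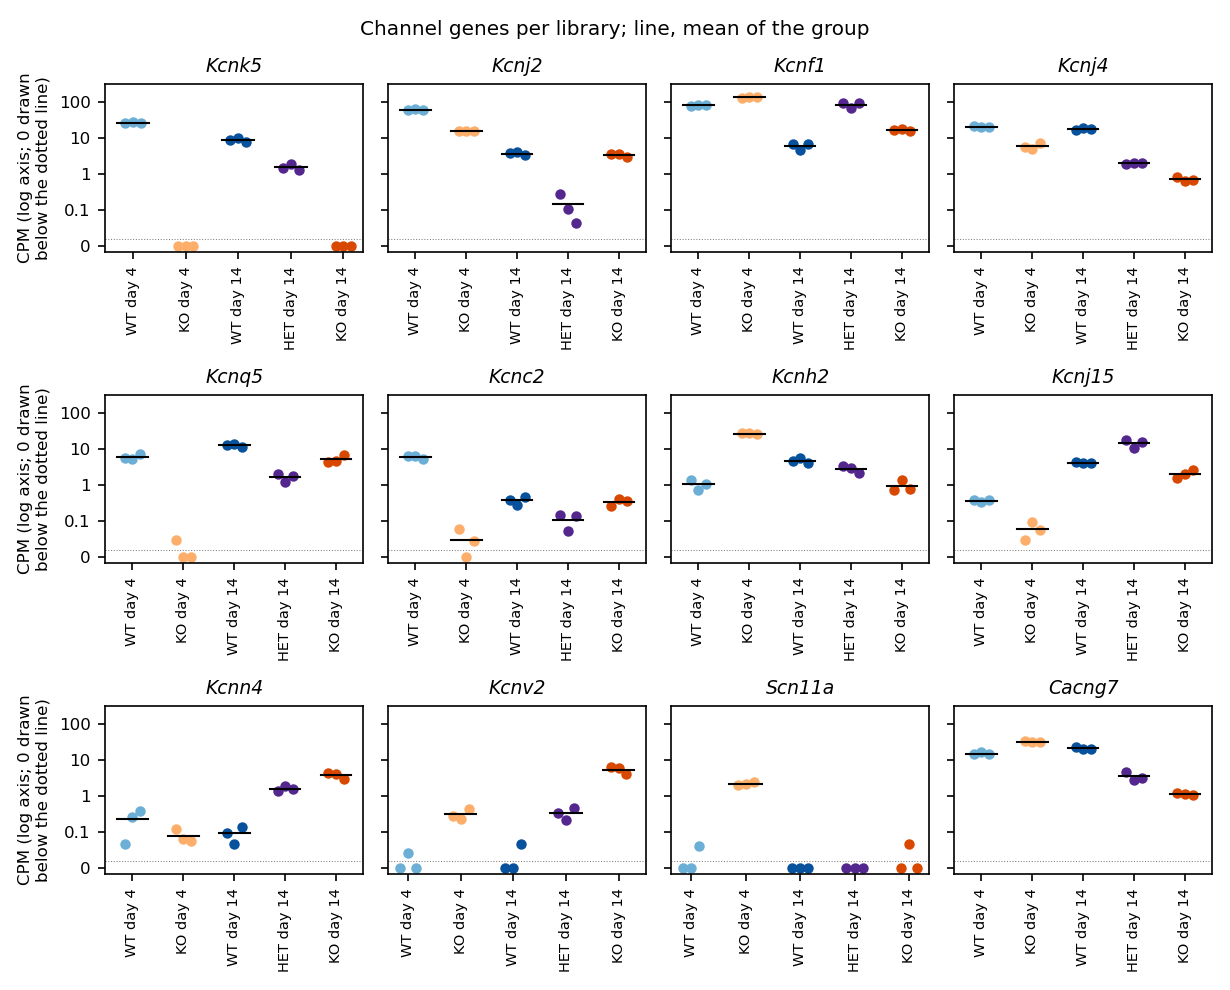
CPM of 12 channel genes in each library on a log axis, with points at 0 drawn below the dotted line and black lines at group means. Kcnk5 was at 0 in the 6 KO libraries, Kcnq5 and Kcnc2 were low in KO at day 4 and detected again at day 14, and Kcnf1 and Kcnj15 were high in HET.

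Among 40 voltage-gated potassium channel alpha genes, 14 were tested and 3 had no count. Per kilobase of exon, the most abundant in 4 of the 5 groups was Kcnf1 (chr12:17172100-17176888), which encodes a silent subunit: it forms no channel alone and modifies channels made with other subunits. Kcnf1 held 76.4, 78.9 and 82.8 CPM in WT and 130, 136 and 135 CPM in KO at day 4. In the later groups it was 6.63, 4.64 and 6.59 CPM in WT, 89.6, 68.1 and 93.5 CPM in HET and 16.1, 17.5 and 15.4 CPM in KO. HET was highest of the 3 without overlap, 14.1-fold above WT (adjusted p = 2.29e-12), and KO was 2.74-fold above WT (adjusted p = 2.02e-07). Kcnf1 fell with time in both genotypes (log2 change -3.74 ± 0.13, adjusted p = 8.21e-13 in WT and -3.03 ± 0.11, adjusted p = 4.07e-12 in KO), and its HET mean was 91.6 CPM without the library that stood apart, against 83.7 CPM with it.

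Kcng1 and Kcnv2 also encode silent subunits, and they went opposite ways. Kcng1 held 1.58, 1.56 and 0.885 CPM in WT at day 4 and 0.56, 0.186 and 0.187 CPM in WT at day 14. It had no count in KO of either day or in HET, which placed KO at least 47.5-fold lower at day 4 (adjusted p = 2.35e-05). Kcnv2 had 1 count in WT at each day but held 6.17, 5.81 and 4.03 CPM in KO at day 14, a ratio to WT of 341-fold, with a 95% exact counting interval of 60.8 to 13500 (adjusted p = 6.78e-09). HET held 0.335, 0.21 and 0.451 CPM, between the homozygous groups without overlap. Kcng1 passed the filter through WT of day 4 alone and Kcnv2 through KO of day 14 alone, so each had to differ there.

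Kcnc2, a delayed rectifier gene of fast-firing neurons, was high in WT and nearly absent in KO at day 4. It held 6.22, 6.34 and 5.22 CPM in WT at day 4 and 3 counts in KO, a ratio of 203-fold, with a 95% exact counting interval of 69.1 to 986 (adjusted p = 4.27e-11). At day 14 the difference was no longer called, at 0.373, 0.278 and 0.467 CPM in WT and 0.254, 0.412 and 0.356 CPM in KO (-0.13 ± 0.42, adjusted p = 0.786).

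Kcnq5 and Kcnh1 shared the gap in KO at day 4. Kcnq5, a subunit of the M-type current that damps excitability, held 5.53, 5.25 and 7.08 CPM in WT and 1 count in KO, a ratio of 582-fold, with a 95% exact counting interval of 104 to 23000 (adjusted p = 8.50e-11). At day 14 it was well detected in KO, at 4.4, 4.71 and 6.84 CPM, still below 12.7, 13.6 and 11.5 CPM in WT (-1.24 ± 0.18, adjusted p = 2.76e-05) and above 1.96, 1.21 and 1.8 CPM in HET (1.67 ± 0.24, adjusted p = 1.19e-05). Kcnh1, an ether-a-go-go channel linked to proliferation, held 3.22, 3.4 and 2.99 CPM in WT at day 4 and 2 counts in KO, a ratio of 163-fold, with a 95% exact counting interval of 44.8 to 1350 (adjusted p = 1.25e-09). By day 14 it was low in WT as well, at 0.28, 0.139 and 0.0467 CPM (-4.33 ± 0.49, adjusted p = 2.73e-08). Kcna7, by contrast, held 0.938 ± 0.0713 CPM and 1.02 ± 0.359 CPM in WT at days 4 and 14 and 1 count in each of the other 3 groups.

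The related gene Kcnh2, which carries the rapid delayed rectifier current of the heart, moved against these. It held 1.37, 0.727 and 1.05 CPM in WT and 27.1, 26.9 and 25.5 CPM in KO at day 4, a difference of 24.9-fold (adjusted p = 1.10e-11). At day 14 the order was turned, with 4.57, 5.52 and 4.07 CPM in WT, 3.45, 2.94 and 2.12 CPM in HET and 0.719, 1.33 and 0.751 CPM in KO (-2.35 ± 0.27, adjusted p = 9.48e-07). Kcnh3 had the same order, at 0.159 ± 0.0447 CPM in WT and 0.69 ± 0.295 CPM in KO at day 4 (2.15 ± 0.50, adjusted p = 9.22e-04). At day 14 it held 1.68, 1.48 and 1.22 CPM in WT, 3 counts in HET and none in KO, at least 34.5-fold lower (adjusted p = 2.22e-06). Kcnh7 was instead highest in KO at day 14, at 1.18, 1.69 and 1.94 CPM against 0.513, 0.51 and 0.514 CPM in WT (1.64 ± 0.46, adjusted p = 0.00487).

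The A-type genes Kcna4 and Kcnd1, whose channels inactivate quickly, had different time courses. Kcna4 fell in WT from 2.77, 1.97 and 1.69 CPM at day 4 to 0.0467, 0.0464 and 0.0935 CPM at day 14 (-5.02 ± 0.74, adjusted p = 2.67e-08), and KO held 0.973, 0.64 and 0.83 CPM at day 14, above WT (3.62 ± 0.75, adjusted p = 1.16e-05). Kcnd1 rose with time in WT, from 1.39 ± 0.399 CPM to 8.11 ± 0.342 CPM, and in KO, from 5.58 ± 0.469 CPM to 9.82 ± 0.713 CPM. Its 3 genotypes lay between 7.10 and 10.4 CPM at day 14, and no genotype difference was called there.

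Of 8 calcium- or sodium-activated potassium channel genes, 4 were tested. Kcnn4, the intermediate-conductance channel of red cells, lymphocytes and dividing fibroblasts, held 4.23, 4.16 and 2.93 CPM in KO at day 14, 1.34, 1.89 and 1.53 CPM in HET and 0.0934, 0.0464 and 0.14 CPM in WT. The order ran opposite to that of Kcnj4, KO above HET above WT without overlap, with log2 changes of 5.27 ± 0.71, adjusted p = 2.39e-07 for KO and 4.02 ± 0.72, adjusted p = 1.34e-05 for HET against WT. The small-conductance gene Kcnn1 ran the other way, at 14.1, 16.4 and 13.6 CPM in WT, 5.13, 5.89 and 5.45 CPM in HET and 4.27, 2.97 and 2.49 CPM in KO (-2.18 ± 0.16, adjusted p = 9.15e-09 for KO against WT). Kcnt2, a sodium-activated channel, held 4.67, 3.02 and 4.21 CPM in WT and 6.55, 6.45 and 5.85 CPM in KO at day 14 (0.66 ± 0.22, adjusted p = 0.0139), a call that was lost without WT replicate 2 (adjusted p = 0.0752). Kcnma1, the large-conductance channel known from smooth muscle and bone, had 67 counts over all libraries and was not tested.

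Per kilobase of exon, Kcnab2 led the auxiliary potassium channel genes. It encodes a beta subunit of the Shaker-type channels and held 13.7, 11.9 and 14.5 CPM in WT and 41.2, 41.1 and 40.4 CPM in KO at day 4 (1.62 ± 0.07, adjusted p = 1.20e-11), and 45.5, 46.2 and 45.8 CPM in WT, 17.3, 15.9 and 17.5 CPM in HET and 27.1, 24.7 and 25.7 CPM in KO at day 14. WT was highest and HET lowest at day 14, with log2 changes of -1.44 ± 0.07, adjusted p = 1.85e-10 for HET and -0.83 ± 0.07, adjusted p = 6.92e-08 for KO. Its paralog Kcnab1 had the reverse order of groups, at 6.9, 7.89 and 7.53 CPM in HET and 4.19, 4.3 and 3.48 CPM in KO against 0.7, 0.464 and 0.935 CPM in WT (3.40 ± 0.32, adjusted p = 7.32e-08 and 2.50 ± 0.32, adjusted p = 3.19e-06). Kcnab3 stayed within 2.19 to 6.54 CPM in the 15 libraries.

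The auxiliary genes Kcnip3 and Kcnmb4 were lower in KO at day 4 and at day 14. Kcnip3, a calcium-binding partner of A-type channels, held 3.87, 3.62 and 3.69 CPM in WT at day 14 against 0.24, 0.105 and 0.18 CPM in HET (-4.36 ± 0.47, adjusted p = 5.88e-08) and 0.254, 0.274 and 0.119 CPM in KO (-4.10 ± 0.41, adjusted p = 6.15e-08), and its day 4 call (-1.01 ± 0.33, adjusted p = 0.0109) was lost without WT replicate 3 (adjusted p = 0.0533). Kcnmb4, a beta subunit of the Kcnma1 channel, held 2.86, 3.48 and 3.79 CPM in WT and 0.121, 0.128 and 0.138 CPM in KO at day 4 (-4.66 ± 0.54, adjusted p = 4.69e-07). At day 14 it was low in WT as well, at 0.233, 0.139 and 0.794 CPM, and had no count in KO. Antisense genes overlap 31.5% of the Kcnmb4 exons, and reads of the strands cannot be told apart.

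Of 10 calcium channel alpha1 genes, which encode the pore, 7 were tested, and in KO at day 14 none of the 7 was higher and 6 were lower than in WT, where 30.9% of all genes were higher and 32.2% lower. Of the 6, Cacna1i had 81 counts in WT of day 14 and 1 to 18 in each other group. It thus passed the filter through that group alone and had to differ. Cacna1c, the L-type channel of heart, smooth muscle and fibroblasts, held 96.6, 101 and 98.3 CPM in WT and 90.1, 87.6 and 94.2 CPM in KO at day 4 (-0.12 ± 0.12, adjusted p = 0.368). It fell in both genotypes, to 13.6, 12.7 and 10.3 CPM in WT (-3.01 ± 0.13, adjusted p = 1.34e-11) and 2.92, 3.29 and 2.49 CPM in KO (-4.97 ± 0.17, adjusted p = 4.74e-13), with HET at 5.8, 3.73 and 7.12 CPM. At day 14 the 3 genotypes did not overlap, and KO was 4.22-fold below WT (adjusted p = 4.85e-08). The other tested L-type gene, Cacna1d, held 1.45, 0.696 and 0.841 CPM in WT, 2.16, 0.368 and 1.71 CPM in HET and 0.127, 0.0457 and 0.158 CPM in KO at day 14, and KO was lower than WT at day 4 (-4.36 ± 1.06, adjusted p = 9.55e-05) and day 14 (-3.09 ± 0.82, adjusted p = 0.0013).

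Cacna1a, the P/Q-type channel of nerve endings, was the leading alpha1 gene of WT at day 14 per kilobase of exon. It rose there from 4.18, 4.36 and 3.79 CPM to 21.7, 26.3 and 27.8 CPM (2.61 ± 0.15, adjusted p = 1.94e-10). KO was ahead of WT at day 4, at 19.6, 16.8 and 18.9 CPM, and behind it at day 14, at 5.46, 6.17 and 7.55 CPM (-1.98 ± 0.14, adjusted p = 1.06e-08), with HET lowest at 2.63, 4.15 and 2.97 CPM. Per kilobase of exon, Cacna1a stood at 2.21 RPKM (CPM per kilobase of exon) and Cacna1c at 0.576 RPKM in WT at day 14, against 0.36 and 4.65 RPKM at day 4.

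T-type channels open at low voltage, and Cacna1g was the most abundant of their 3 genes per kilobase in each group. It held 3.61, 3.51 and 1.81 CPM in WT and 13.5, 12.2 and 15.3 CPM in KO at day 4 (2.15 ± 0.21, adjusted p = 1.32e-07) and fell to 2.88, 2.88 and 3.0 CPM in KO at day 14, below 6.4, 4.78 and 5.33 CPM in WT (-0.91 ± 0.24, adjusted p = 0.0032). Cacna1i was highest in WT of day 14, at 1.59, 1.58 and 0.608 CPM, against 18 counts in HET and 9 in KO, and its ratio to WT of day 4 was 133-fold, with a 95% exact counting interval of 23.3 to 5330 (adjusted p = 1.97e-06). Cacna1h did not exceed 0.663 CPM in any library.

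Among the calcium channel beta genes, whose products bring the pore to the membrane, Cacnb3 (chr15:98630840-98644529) had the highest level per kilobase in each group. It held 84.8, 80.9 and 81.7 CPM in WT and 148, 139 and 141 CPM in KO at day 4 (0.79 ± 0.06, adjusted p = 7.02e-09). At day 14 the order was WT at 84.8, 71.4 and 78.8 CPM, HET at 59.0, 56.8 and 61.2 CPM and KO at 48.4, 47.1 and 49.1 CPM, with log2 changes of -0.41 ± 0.06, adjusted p = 3.13e-05 for HET and -0.70 ± 0.06, adjusted p = 8.56e-08 for KO. These groups did not overlap. Of the other tested beta genes, Cacnb2 fell and Cacnb1 rose with time in both genotypes. Cacnb2 fell in WT from 18.7, 16.2 and 18.2 CPM to 0.14, 0.464 and 0.467 CPM (-5.61 ± 0.34, adjusted p = 4.26e-12) and in KO from 23.2, 24.9 and 24.7 CPM to 1.78, 2.56 and 1.78 CPM (-3.58 ± 0.18, adjusted p = 3.55e-11). Cacnb1 rose in WT from 1.57 ± 0.0799 CPM to 11.7 ± 0.538 CPM (2.89 ± 0.13, adjusted p = 4.92e-12) and in KO from 4.14 ± 0.196 CPM to 9.4 ± 0.455 CPM (1.18 ± 0.11, adjusted p = 1.13e-07).

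Cacna2d1 (chr5:15934691-16374511), the extracellular alpha2delta subunit bound by gabapentin, was the only tested gene of its family. It held 139, 137 and 142 CPM in WT and 81.5, 80.1 and 79.6 CPM in KO at day 4 (-0.79 ± 0.11, adjusted p = 6.78e-06), and 16.2, 13.6 and 13.8 CPM in WT, 16.4, 10.5 and 15.2 CPM in HET and 23.0, 27.2 and 21.9 CPM in KO at day 14. KO went from below WT to above it (0.72 ± 0.12, adjusted p = 1.09e-04). The change in the KO effect was 1.51 ± 0.16 (adjusted p = 7.08e-07), a call that opposite calls at day 4 and day 14 all but fix in advance. HET and WT overlapped. Of the gamma genes, Cacng7, better known as an auxiliary subunit of AMPA receptors, held 14.3, 16.3 and 14.2 CPM in WT and 32.4, 31.4 and 32.1 CPM in KO at day 4 (1.09 ± 0.11, adjusted p = 1.67e-07). At day 14 it held 22.6, 19.4 and 20.5 CPM in WT, 4.6, 2.84 and 3.07 CPM in HET and 1.18, 1.14 and 1.07 CPM in KO, so that KO was 18.4-fold below WT (adjusted p = 3.95e-12). Its neighbour Cacng8, whose start lies 57.7 kb from that of Cacng7 and which belongs to the same receptor class, held 2.52 ± 0.392 CPM in KO and 2.05 ± 0.333 CPM in WT at day 14 (0.29 ± 0.27, adjusted p = 0.365), with HET at 0.556 ± 0.226 CPM.

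**Figure D4:**
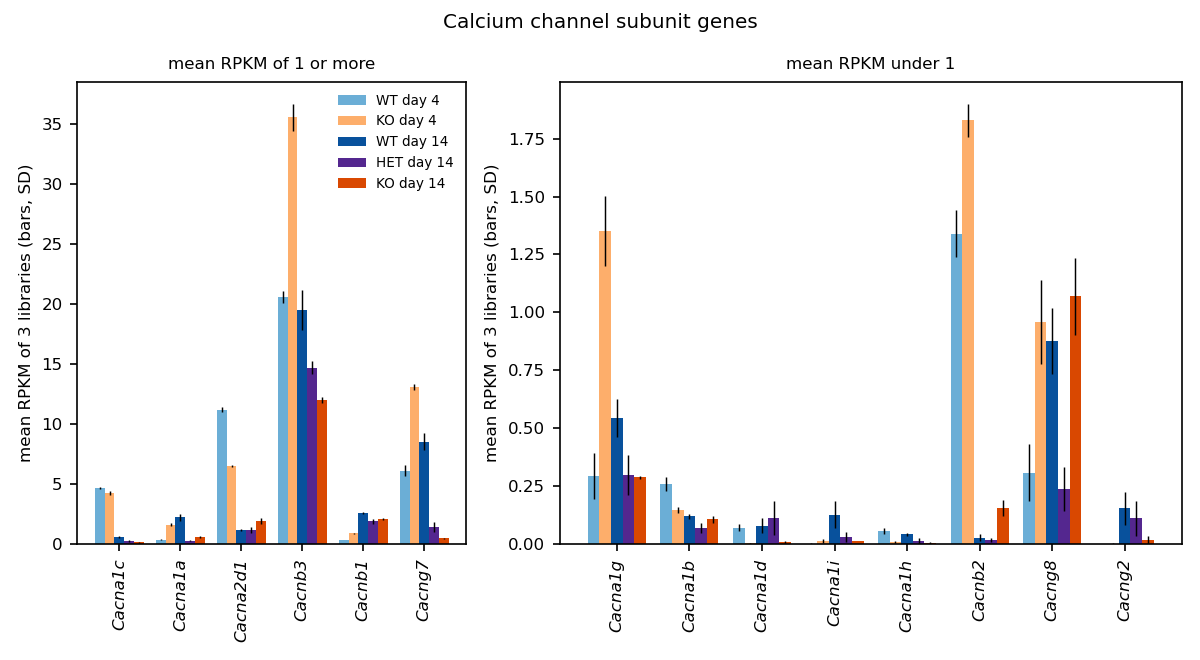
Mean RPKM (with SD over 3 libraries) of the 14 tested calcium channel genes in the 5 groups, split into 2 panels with separate linear axes by a mean of 1 RPKM over the groups. Cacnb3 reached 35.6 RPKM in KO at day 4 and 12 RPKM in KO at day 14, and Cacna1c fell from 4.65 to 0.576 RPKM in WT.

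The 10 sodium channel alpha genes together held 1.13 to 4.36 CPM on average by group, and 5 were tested. Scn11a, known from pain-sensing neurons, appeared in KO of day 4, at 2.02, 2.17 and 2.37 CPM, against 1 count in WT, a ratio of 232-fold, with a 95% exact counting interval of 41.3 to 9220 (adjusted p = 7.08e-07). By day 14 it had no count in WT or HET and 1 in KO. Scn11a thus passed the filter through KO of day 4 alone and had to differ there. Scn2a held 1.6, 1.66 and 1.57 CPM in KO and 0.0686, 0.0519 and 0 CPM in WT at day 4 (4.97 ± 0.67, adjusted p = 1.78e-08). It stayed higher in KO at day 14, at 2.45, 2.93 and 2.02 CPM against 0.7, 0.464 and 0.421 CPM in WT (2.21 ± 0.31, adjusted p = 8.57e-06). Both genes were thus higher in KO than in WT at day 4, and Scn2a alone was called at day 14.

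Scn8a, a neuronal sodium channel, was instead lower in KO at day 14. It held 1.49, 2.04 and 2.29 CPM in WT at day 14 against 0.192, 0.21 and 0.0901 CPM in HET (-3.55 ± 0.50, adjusted p = 2.35e-06) and 0.0423, 0.137 and 0.0791 CPM in KO (-4.44 ± 0.63, adjusted p = 4.43e-07).

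The KO effects at day 4 and day 14 share no libraries. Of the 54 genes, 30 were called in KO against WT at both days. Higher at both days were 5 (9.3%, and 12.5% of all tested genes): Cacnb2, Kcnf1, Kcnk2, Kcnv2 and Scn2a. Lower at both were 15 (27.8% and 12.3%), among them Kcnk5, Kcng1, Kcnj4, Kcnk10, Kcnmb4 and Kcnq5. From higher to lower went 9 (16.7% and 10.8%), of which 6 were calcium channel genes: Cacna1a, Cacna1g, Cacna1i, Cacnb1, Cacnb3 and Cacng7. The filter bears on these counts: Kcng1 passed it through WT of day 4 alone, Kcnv2 through KO of day 14 and Cacna1i through WT of day 14. Cacna2d1 alone went from lower to higher (1.9% and 10.9%). For all 10 genes that turned, the difference between the days was called. Opposite calls at day 4 and day 14 all but fix that result in advance, so it adds no support. The calls of Cacna1i at day 4 and of Cacnb1 at day 14 were lost without single libraries: the former without WT replicate 1 (adjusted p = 0.067), WT replicate 2 (adjusted p = 0.0577) or KO replicate 1 (adjusted p = 0.0664), the latter without WT replicate 3 (adjusted p = 0.0577) or KO replicate 1 (adjusted p = 0.0642).

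**Figure D5:**
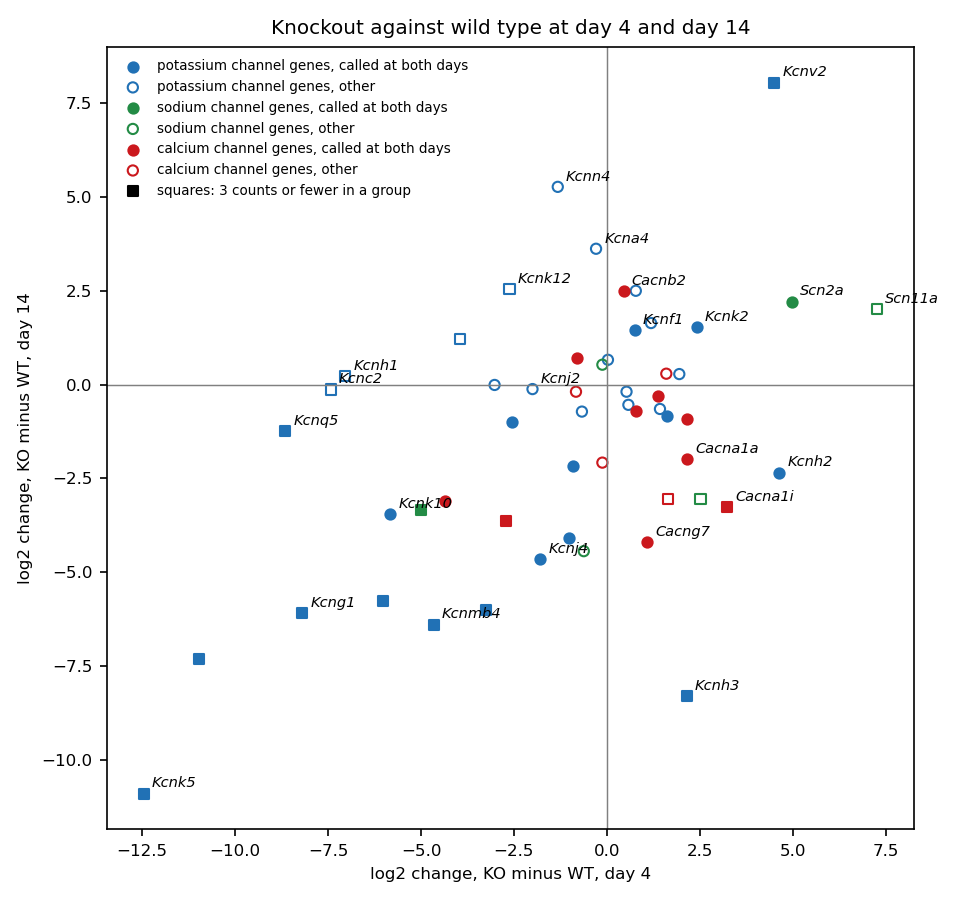
Log2 change in KO against WT at day 4 (x axis) and day 14 (y axis) for the 54 tested channel genes, filled where called at both days. Squares have 3 counts or fewer in a group, so their distance from 0 depends on the model; 15 genes called lower at both days lie at the lower left, and 9 that turned from higher to lower at the lower right.

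The 78 genes under the filter were near the limit of detection. No library held a count for 5 of them (Cacng1, Kcna3, Kcna5, Kcnk16 and Kcns1), 52 had 1 to 10 counts in their best group and 21 had 11 or more, up to 60 for Cacnb4 in KO at day 4. Of the 73 with a count, 43 had their highest mean in WT at day 14 (58.9%), a share of 43.3% over all untested genes. Replicate 3 of that group held counts for 58 of them, replicate 1 for 33 and replicate 2 for 43, and without replicate 3, left out after these counts were seen, the share was 45.1%, against 37.2%. In a fit with no filter beyond 1 count, 19 of the 73 rose and 2 fell from day 4 to day 14 in WT, and 1 was higher and 11 lower in KO than in WT at day 14. The share of all genes called in that fit was not computed, so these counts cannot be read as a trait of channel genes. Over all untested genes, 6957, 8147 and 8980 had a count in the WT libraries of day 14, against 4924, 4603 and 3695 at day 4. Well-known members in this class were Kcnj8, a subunit of ATP-sensitive channels, with 13 counts in all, the epithelial and heart channel gene Kcnq1 with 12 and the glial sodium channel gene Scn7a with 21.

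Other channel and transporter genes, from lists drawn up from general knowledge, are given in KO against WT at day 14 and at day 4, beside the shares for all genes above. Among 17 tested TRP and PIEZO genes, which encode sensory and mechanosensitive cation channels, 3 were higher and 4 lower at day 14 and 8 higher and 4 lower at day 4. The mechanosensitive Piezo1 was among the higher and Piezo2 among the lower at day 14. Of 14 store-operated and release channel genes, 7 were higher and 6 lower at day 14 and 6 higher and 1 lower at day 4, and the inositol trisphosphate receptor genes Itpr1, Itpr2 and Itpr3 were higher at both days. The 16 tested pump and exchanger genes gave 7 higher and 5 lower at day 14 and 8 higher and 5 lower at day 4. The 17 tested chloride channel genes gave 9 higher and 3 lower at day 14 and 6 higher and 5 lower at day 4. Of 5 tested RGK and Stac genes, whose products restrain or help calcium channels, Gem, Stac2 and Stac3 were higher and none lower at day 14, while Gem, Rrad and Stac2 were higher and Stac3 lower at day 4. Of 3 tested HCN and CNG genes, 1 was higher and 1 lower at day 14 and 1 higher and 2 lower at day 4: Cnga2 was higher and Hcn2 lower at both days, and Hcn3 was lower at day 4.

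Many channel genes are known from nerve and muscle, and markers of these and of other cell types differed between the groups. The summed level of 10 neuronal markers was 51.6 to 56.3 CPM in KO and 3.14 to 3.46 CPM in WT at day 4, and 7.33 to 9.11, 2.07 to 4.42 and 11.9 to 12.3 CPM in WT, HET and KO at day 14. In KO of day 4 it was mostly Map2 (40.0 to 44.6 CPM), and Rbfox3, Snap25, Elavl4, Nefl and Gap43 were at 0. The smooth muscle list, 8 genes led by Acta2, summed to 2480 to 2500 CPM in KO and 26.6 to 29.8 CPM in WT at day 4, and to 557 to 577 CPM in KO, 116 to 130 CPM in HET and 67.7 to 76.1 CPM in WT at day 14, with Myh11 at most 0.274 CPM in any library. Striated muscle markers summed to 1.33 to 3.51 CPM over all libraries, with Myod1 at 0 in each group but WT of day 14. The adipocyte list, mostly Fabp4, summed to 418 to 434 CPM in KO and 226 to 351 CPM in HET at day 14 and to at most 86.2 CPM elsewhere, with Adipoq at 0 or 0.0423 CPM in each library. The macrophage list, mostly Cd68, reached 35.9 to 39.1 CPM in KO of day 14 with Adgre1 at 0, and at most 7.83 CPM elsewhere. The 7 fibroblast markers summed to 1080 to 1090 CPM in WT and 1440 to 1450 CPM in KO at day 4, and to 2220 to 2240, 3880 to 3960 and 2560 to 2610 CPM in WT, HET and KO at day 14. Within that list Col1a2 was at 447 to 517 CPM in HET and at most 3.11 CPM elsewhere, and Dcn was at 488 to 731 CPM in WT and HET and 21.1 to 44.3 CPM in KO. The 4 chondrocyte markers summed to 20.3 to 32.3 CPM in HET and in both KO groups and 3.57 to 7.92 CPM in both WT groups, mostly Sox9, with Acan at most 0.385 CPM in any library. The 5 endothelial markers summed to 11.5 to 15 CPM in WT of day 4, mostly Kdr and Cdh5, and to at most 4.86 CPM elsewhere. The 6 glial markers summed to 8.42 to 9.28 CPM in KO of day 14, mostly Mbp, and to at most 5.79 CPM elsewhere, with Sox10 at most 0.0467 CPM in any library. The part of these markers' cell types in the channel gene results was not tested.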

How the data were processed

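RNA-seq counts per gene were deposited for 15 libraries in 5 groups of 3. Per the submitters' processing notes, TopHat2 2.1.0, HTSeq and DESeq2 were used with GRCm38.p4; their other versions, the strand option of the counting and the release of the gene models were not given in the sources used here. The deposited raw counts are whole numbers per Ensembl gene ID, and the library kit named in the labels' protocols does not mark strand. Symbols, exon lengths and gene coordinates came from GENCODE M21 (46091 of 46603 IDs matched), and promoters from RefSeq on GRCm38.p6. Genes passing edgeR's filterByExpr (15296) were fitted in R 4.3.3 with edgeR 4.0.16 (TMM scaling, robust quasi-likelihood F test, 1 mean per group, Benjamini-Hochberg adjustment within each of 7 comparisons, threshold 0.05). The ± after a log2 change is a standard error, computed from the fitted means, dispersions and quasi-likelihood variances and not set below counting error.

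CPM were computed from the counts with TMM-scaled library sizes, and RPKM as CPM per kilobase of union exon. Where a group had no count, a fold is a bound with 3 counts set for the group; with 1 to 3 counts, the ratio has a 95% exact interval. Tests were checked on simulated data. Members and lists were chosen with earlier results of these data known. Named genes were the 12 most abundant members, up to 4 largest called increases and decreases per pairwise comparison (1 CPM or more in the higher group, no overlap), up to 3 each way for the difference between days, 15 well-known members, and members without a count in one group but at 1 CPM or more in another. Cacnb1, Cacnb4, Cacng8, Kcnab3, Kcnd1, Kcnip3, Kcnj16, Kcnn1, Kcnt2 and the genes of the other lists were named after their values were seen. Alternatives were DESeq2 1.42.0, RLE scaling, other filters, fits of the compared groups alone, a replicate block and leaving out each library. The replicate numbers carry no stated pairing. Values of some single members are not reported here.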

Additional observations from a re-analysis of the deposited data

Results flagged for a closer look

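The KO effect differed between day 14 and day 4 for the genes below by the test of the difference itself (edgeR quasi-likelihood test of the interaction of genotype and day, adjusted p under 0.05), and they are the 3 largest differences in each direction among channel genes that reached 1 CPM in some group. Values are log2 differences, the KO to WT change at day 14 minus that at day 4, and each depends on the model where a group had 3 counts or fewer. For the potassium channel genes Kcnq5, Kcnc2 and Kcnh1 the difference was 7.43, 7.3 and 7.27; each had 3 counts or fewer in KO at day 4. For Kcnh2 it was -6.99, with more than 3 counts in each group. For Kcnh3 it was -10.46, with no count in KO at day 14, and for the calcium channel gene Cacna1i -6.5, with 1 count in WT at day 4. Kcnc2 and Kcnh1 passed the filter through WT of day 4 alone and Cacna1i through WT of day 14 alone. Those groups enter this difference, so the calls of these genes carry that selection and are no support.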

How the results depend on the processing

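The 21 counts of called channel genes were recomputed 270 times under the alternatives, and 2 moved by more than 1.5 times. Both were for day 14 against day 4 in WT with no filter beyond 1 count, where 62 genes were called in place of 41 and 43 rose in place of 24, since 127 channel genes then entered the test in place of 54. Of 260 called changes of single genes, recomputed 3265 times, 3187 values kept their direction and call, 78 lost the call in 24 changes and 0 turned direction. A gene that an alternative did not test, or that had no adjusted p there, gave no value and is in none of these numbers. The filter of 1 CPM in 3 samples, for example, tested 44 channel genes in place of 54. Leaving out 1 library gave 41 to 43 calls for KO against WT at day 14 (40 with all libraries), 34 to 40 for HET against WT (37), 31 to 35 for KO against HET (34), 41 to 43 for KO against WT at day 4 (41), 41 to 44 for time in WT (41), 32 to 34 for time in KO (32) and 35 to 38 for the difference between days (35). The fits without 1 library tested 58 to 60 channel genes in place of 54, so their calls are out of a larger number. No scaling moved the median over all genes by more than 0.07 on the log2 scale. Low counts limit what could be read for the 78 untested genes, of which 73 had a count and entered the test with no filter beyond 1 count.

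With the replicate number as a block, 40, 36, 34, 42, 40, 31 and 35 channel genes were called in the same order of comparisons. Deviations of same-numbered libraries correlated between -0.15 and 0.179 over 30 pairs (median -0.005, 1 above 0.1). Differently numbered libraries were not set beside these, so the values cannot decide whether the numbers pair the libraries. The block ended the calls of Kcnab3 in HET against WT (adjusted p = 0.0672), Kcnk12 with time in WT (adjusted p = 0.0608) and Scn2a with time in KO (adjusted p = 0.0601).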
